A study of Mus musculus with 2 samples.

Results

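Foxp3 and 9 other genes that mark regulatory T cells (Tregs) were followed across T cells of MB49 tumours, 10 of the 32285 genes counted. The 9 others were Ikzf2, Ikzf4, Il2ra, Lrrc32, Nrp1, Gpr83, Izumo1r, Ebi3 and Nt5e, and the list was given by name. MB49 is a transplantable bladder tumour line of the C57BL/6 mouse. Tumours grew for 14 days in C57BL/6J mice aged 12 to 14 weeks and were digested with type IV collagenase. The labels say that viable CD4+ T cells were sorted and run on a 10x Genomics GEM-X kit that reads the 5′ end of each transcript. There was 1 library of female mice and 1 of male mice. Neither group carried an engineered allele or a drug treatment in the labels, and the number of mice behind each library was not given in the sources used here.

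Tregs are CD4 T cells that restrain immune responses, and the transcription factor Foxp3 sets and keeps their identity. They take up interleukin 2 through a high-affinity receptor, release or activate inhibitory cytokines such as TGF-beta, and turn extracellular nucleotides into adenosine. In tumours they are common among CD4 T cells and are known for limiting the action of CD8 T cells.

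A barcode stands for a droplet that may hold 1 cell or more. After filtering, 3468 female and 3519 male barcodes remained, and 12 barcode sequences occurred in both libraries. The 6987 kept barcodes were read by their unique molecular identifiers (UMIs, counted transcripts). Barcodes without a Cd8a or Cd8b1 UMI were split by their Foxp3 UMIs into 1082 with 0, 87 with 1, 252 with 2 to 4 and 239 with 5 or more (5+). A further 4185 barcodes with at least 2 UMIs of Cd8a and Cd8b1 together and none of Foxp3 formed the Cd8 class. Median UMI totals were 4311, 4375, 5461 and 7739 in the Foxp3 classes and 9709 in the Cd8 class, so every barcode was thinned at random to 3000 UMIs and shallower ones were left out. That left 784, 63, 228, 236 and 3963 barcodes, and Foxp3 2+ below joins the 2 to 4 and 5+ classes (464 barcodes, 187 female and 277 male). Levels are given as CPM, UMIs scaled to a total of 1000000 thinned UMIs. All intervals are exact 95% intervals and cover counting error only, and no difference was tested. Differences between classes are given pooled, and in each library where a library is named. With 1 library of each sex, differences between the sexes have no replicate check.

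The CD4 label was checked first. Cd4, the co-receptor the cells were sorted on, stood at 209, 180, 180 and 172 CPM in the Foxp3 0, 1, 2 to 4 and 5+ classes and at 5.47 CPM in the Cd8 class, which was the largest class of all. At least 1 UMI of Cd3d, Cd3e, Cd3g or Trac was found in 98.4% to 100% of barcodes of the 3 Foxp3-positive classes and in 88.3% of Foxp3 0 barcodes. Keratin and Epcam markers of tumour or epithelial cells summed to 247 CPM in the Foxp3 0 class (60 of 784 barcodes), 89.9, 32.2 and 33.9 CPM in the Foxp3 1, 2 to 4 and 5+ classes and 8.50 CPM in the Cd8 class. Fibroblast markers summed to 200.3 CPM in the Foxp3 0 class, with 12 barcodes holding them, and to 0, 1.46 and 0 CPM in the Foxp3-positive classes. Myeloid markers summed to 44.6, 42.3, 23.4 and 107 CPM in the Foxp3 0, 1, 2 to 4 and 5+ classes and to 26.2 CPM in the Cd8 class. The Foxp3 5+ value was 239 CPM in the female library (63 UMIs in 8 barcodes) and 29.3 CPM in the male library. A filter then left out barcodes with tumour or epithelial, myeloid, B cell, fibroblast or endothelial markers. With 253 Foxp3 2+ and 514 Foxp3 0 barcodes remaining, the same 6 genes named below were called higher in Foxp3 2+ barcodes. Dendritic cell, NK cell and neutrophil markers were outside this filter. So were markers of plasmacytoid dendritic cells (Siglech, Bst2 and Tcf4). At least 1 UMI of these was held by 31.4%, 38.1%, 38.6% and 32.6% of Foxp3 0, 1, 2 to 4 and 5+ barcodes and by 24.2% of Cd8 barcodes. In each Foxp3-positive class and in the Cd8 class 1 of the 3 genes had 0 UMIs, so these shares are not a count of such cells.

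The genes lie on 8 chromosomes (GRCm38, GENCODE M21). Foxp3 (ENSMUSG00000039521) lies on chromosome X at 7573644 to 7595245, on the plus strand. It overlaps the noncoding gene Flicr on the same strand, so reads there may be split between them. Ppp1r3f and Ccdc22 overlap it on the other strand, and the counting strand is not given in the sources used here. Ikzf2 (ENSMUSG00000025997) is on chromosome 1 at 69531214 to 69687245, Il2ra (ENSMUSG00000026770) on chromosome 2 at 11642807 to 11693193 and Lrrc32 (ENSMUSG00000090958) on chromosome 7 at 98489283 to 98502181. Nrp1 (ENSMUSG00000025810) is on chromosome 8 at 128358604 to 128503363, Ikzf4 (ENSMUSG00000002578) on chromosome 10 at 128630843 to 128645991 and Ebi3 (ENSMUSG00000003206) on chromosome 17 at 55952640 to 55957022. Chromosome 9 holds 3 of the genes: Nt5e (ENSMUSG00000032420) at 88327197 to 88372092, and the neighbours Gpr83 (ENSMUSG00000031932) at 14860210 to 14870789 and Izumo1r (ENSMUSG00000031933) at 14885814 to 14903949. Gpr83 and Izumo1r are on opposite strands, 15.0 kb apart.

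Promoter windows of RefSeq on GRCm38.p6, 250 bases before to 50 after a transcript start, were held for 7 of the 10 genes (8 windows, with 2 for Foxp3). Ikzf2, Ikzf4 and Lrrc32 had none. The windows are shown for Foxp3, for Il2ra, whose level moved most closely with Foxp3 among the other members, and for the neighbours Izumo1r and Gpr83, which were detected very unequally. Capitals mark the letters of a forkhead core (TAAACA or CAAACA, the family Foxp3 belongs to) or of a STAT core (TTCNNNGAA, read by the STAT5 factors downstream of interleukin 2), each searched on both strands.
Foxp3, chrX:7579426-7579725 (+ strand): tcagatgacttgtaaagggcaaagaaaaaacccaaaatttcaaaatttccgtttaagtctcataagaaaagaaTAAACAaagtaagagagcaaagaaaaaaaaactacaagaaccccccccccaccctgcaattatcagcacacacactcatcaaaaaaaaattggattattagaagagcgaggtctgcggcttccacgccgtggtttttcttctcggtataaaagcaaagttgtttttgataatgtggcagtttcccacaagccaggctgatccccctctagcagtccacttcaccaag
Foxp3, chrX:7580233-7580532 (+ strand): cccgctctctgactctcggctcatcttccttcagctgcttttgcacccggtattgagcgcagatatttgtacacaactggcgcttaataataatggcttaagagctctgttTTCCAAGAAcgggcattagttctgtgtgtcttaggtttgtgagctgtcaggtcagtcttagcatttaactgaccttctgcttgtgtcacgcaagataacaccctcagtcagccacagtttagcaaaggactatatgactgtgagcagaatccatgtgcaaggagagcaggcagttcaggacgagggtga
Il2ra, chr2:11642542-11642841 (+ strand): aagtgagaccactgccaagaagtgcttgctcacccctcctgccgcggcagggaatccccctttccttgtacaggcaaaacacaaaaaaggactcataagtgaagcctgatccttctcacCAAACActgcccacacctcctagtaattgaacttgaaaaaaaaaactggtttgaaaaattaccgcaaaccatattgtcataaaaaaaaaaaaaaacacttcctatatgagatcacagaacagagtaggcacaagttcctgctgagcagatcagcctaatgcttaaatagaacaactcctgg
Izumo1r, chr9:14903718-14904017 (- strand): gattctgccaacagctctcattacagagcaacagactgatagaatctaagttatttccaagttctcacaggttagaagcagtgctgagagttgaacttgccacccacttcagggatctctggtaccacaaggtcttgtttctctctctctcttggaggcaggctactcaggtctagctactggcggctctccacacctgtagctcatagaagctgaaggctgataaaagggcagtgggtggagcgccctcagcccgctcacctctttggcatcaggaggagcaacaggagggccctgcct
Gpr83, chr9:14859960-14860259 (+ strand): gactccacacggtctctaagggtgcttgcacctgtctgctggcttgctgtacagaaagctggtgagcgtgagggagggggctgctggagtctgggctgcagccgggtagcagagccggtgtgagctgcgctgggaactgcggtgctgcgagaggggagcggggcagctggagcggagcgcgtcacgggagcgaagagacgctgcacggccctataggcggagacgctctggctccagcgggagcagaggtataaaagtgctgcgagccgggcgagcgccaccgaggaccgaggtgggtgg
The first Foxp3 window held 1 TAAACA, the second 1 TTCNNNGAA and the Il2ra window 1 CAAACA. The windows of Izumo1r, Gpr83, Ebi3, Nrp1 and Nt5e held none of these letters. Over 32851 windows of the same length, 13.4% held TAAACA, 18.2% CAAACA, 28.2% either and 8.3% TTCNNNGAA, so matches of this kind are common and are given as a description of the letters only.

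The 6 genes Lrrc32, Il2ra, Ikzf2, Izumo1r, Ikzf4 and Ebi3 were higher in barcodes with Foxp3, already at 1 Foxp3 UMI. A gene was called higher or lower in a class when its CPM differed at least 2-fold and the interval of the ratio did not include 0 on the log2 scale. It counted as measured with at least 20 thinned UMIs over both classes, and 8 of the 9 other members were measured in the first comparison. In Foxp3 2+ against Foxp3 0 barcodes, 6 of these 8 were higher (Lrrc32, Il2ra, Ikzf2, Izumo1r, Ikzf4 and Ebi3) and 0 lower, where 7.91% of all 9189 measured genes were called higher and 6.89% lower. The same 6 were called in each library alone, with a background of 7.53% higher in female and 8.63% in male barcodes. The median log2 ratio was 2.39 over the 8 members and 0.11 over all measured genes. Foxp3 itself defines the classes and is not counted.

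**Figure D1:**
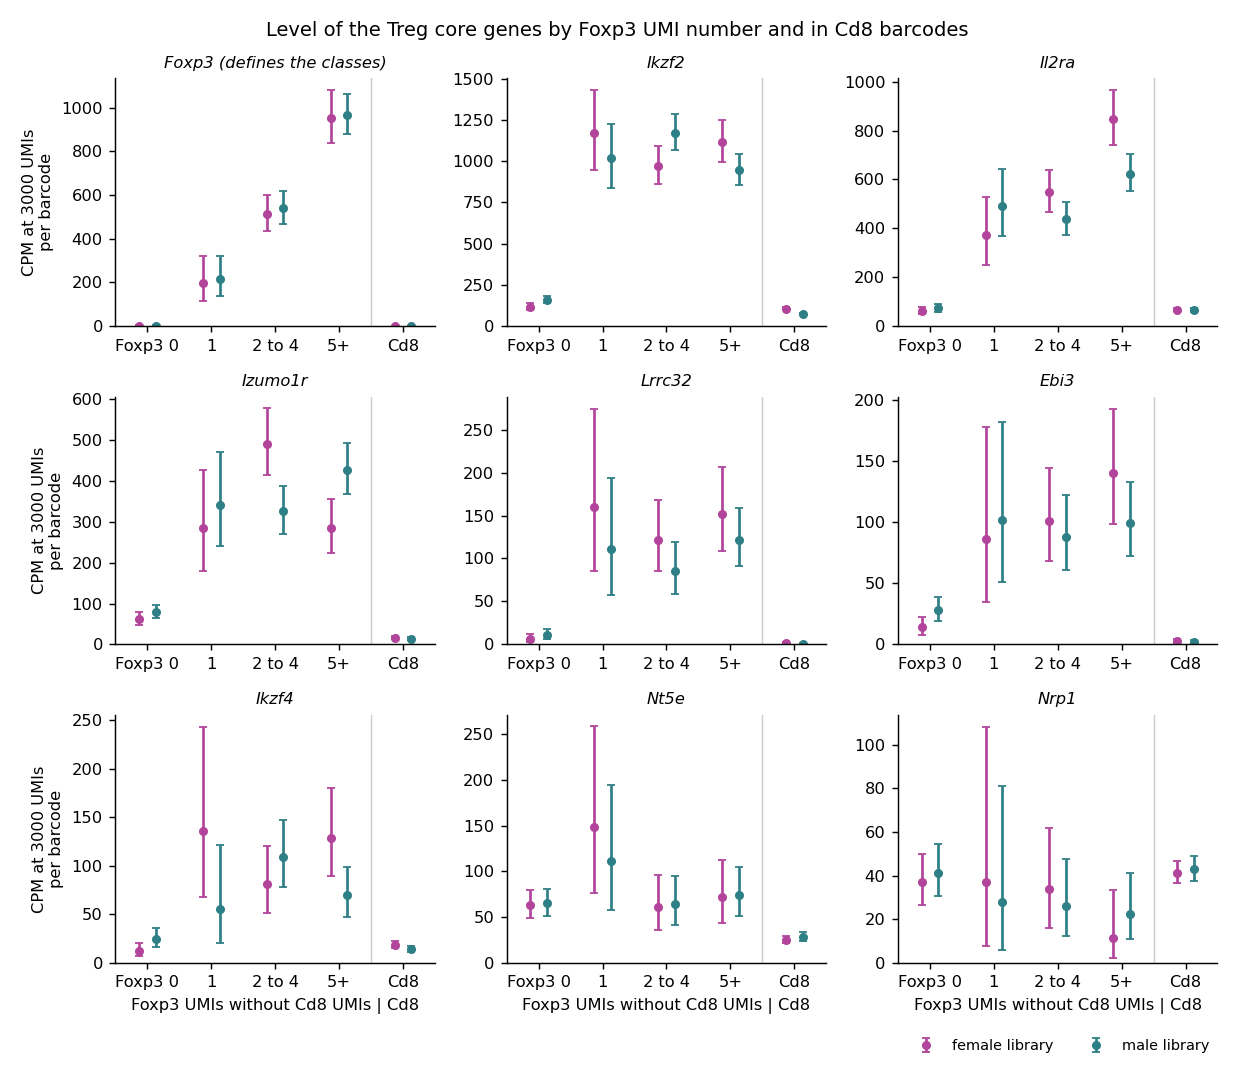
Level of Foxp3 and 8 other members (vertical axis, CPM after thinning each barcode to 3000 UMIs) in the Foxp3 0, 1, 2 to 4 and 5+ classes and in the Cd8 class, with the female library in purple and the male library in green. Points are summed levels and bars exact 95% Poisson intervals. These 6 genes step up between Foxp3 0 and Foxp3 1, Nt5e and Nrp1 do not follow this pattern, and Gpr83 is not drawn because it had 1 thinned UMI in the Foxp3 0 class and 1 in the Cd8 class.

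Ikzf2 encodes Helios, a zinc finger factor of the Ikaros family found in many Tregs. Its level was 1041 CPM (958 to 1129) in female and 1051 CPM (982 to 1123) in male Foxp3 2+ barcodes, against 116 CPM (96.9 to 137) in female and 160.1 CPM (138 to 184) in male Foxp3 0 barcodes. The libraries did not overlap between the classes. The pooled log2 ratio was 2.92 (2.74 to 3.09), or 7.55-fold. At least 1 Ikzf2 UMI was found in 86.4% of the 464 Foxp3 2+ barcodes and in 16.2% of the 784 Foxp3 0 barcodes. For comparison, 6.67% of 90 barcodes with no Cd3 UMI and no Foxp3 UMI held one (2.49% to 13.9%). Those barcodes had a median of 23787.5 UMIs before thinning, against 6634.5 in Foxp3 2+ barcodes. Of the 90, 53 held keratin or Epcam markers, and fibroblast and myeloid markers summed to 1737 and 300 CPM. These barcodes thus include other cell types and are not an empty background.

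Ikzf4 encodes Eos, another Ikaros factor, which works with Foxp3 in silencing genes in mouse Tregs. It stood at 103 CPM (78.5 to 134) in female and 87.8 CPM (68.9 to 110.5) in male Foxp3 2+ barcodes. In Foxp3 0 barcodes it stood at 12.3 CPM (6.71 to 20.6) in the female and 24.8 CPM (16.7 to 35.3) in the male library. The pooled log2 ratio was 2.33 (1.83 to 2.86). It was 3.07 in female and 1.83 in male barcodes, and the UMIs behind the Foxp3 0 levels were 14 and 30. A UMI of Ikzf4 was found in 22.0% of Foxp3 2+ barcodes, against 4.85% of Foxp3 0 barcodes and 1.11% of the barcodes with no Cd3 UMI.

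Il2ra encodes CD25, the alpha chain that gives the interleukin 2 receptor its high affinity. It reached 689.8 CPM (623 to 762) in female and 537 CPM (488 to 589) in male Foxp3 2+ barcodes, against 61.4 CPM (47.9 to 77.6) in female and 71.8 CPM (57.5 to 88.5) in male Foxp3 0 barcodes. The pooled log2 ratio was 3.16 (2.92 to 3.42), or 8.96-fold. A UMI of Il2ra was found in 63.6% of Foxp3 2+ barcodes, against 10.5% of Foxp3 0 barcodes and 3.33% of the barcodes with no Cd3 UMI.

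Lrrc32 encodes GARP, which anchors latent TGF-beta on the surface of activated Tregs. It stood at 135 CPM (107 to 169.6) in female and 105 CPM (83.9 to 129) in male Foxp3 2+ barcodes. In Foxp3 0 barcodes it stood at 6.14 CPM (7 UMIs) in female and 10.7 CPM (13 UMIs) in male barcodes. The pooled log2 ratio of 3.78 (3.11 to 4.53), or 13.8-fold, was the highest point value of the 8 measured members in this comparison, with 4.46 in female and 3.29 in male barcodes. Its interval overlapped that of Il2ra. A UMI of Lrrc32 was found in 25.4% of Foxp3 2+ and 1.79% of Foxp3 0 barcodes, and in 0 of the 90 barcodes with no Cd3 UMI, which allows up to 4.02%.

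Izumo1r encodes folate receptor 4, a surface protein of mouse Tregs. Its level was 394 CPM (344 to 449) in female and 380.3 CPM (339 to 425) in male Foxp3 2+ barcodes, against 62.3 CPM (48.6 to 78.6) in female and 79.2 CPM (64.2 to 96.7) in male Foxp3 0 barcodes. The pooled log2 ratio was 2.44 (2.19 to 2.70), and 46.6% of Foxp3 2+ barcodes held a UMI of it, against 13.01% of Foxp3 0 barcodes and 0 of 90 with no Cd3 UMI (up to 4.02%). Ebi3 encodes the shared beta subunit of the cytokines interleukin 27 and interleukin 35. It stood at 119 CPM (92.6 to 152) in female and 93.9 CPM (74.2 to 117) in male Foxp3 2+ barcodes, against 14.0 CPM (16 UMIs) in female and 28.1 CPM (34 UMIs) in male Foxp3 0 barcodes. The pooled log2 ratio of Ebi3 was 2.29 (1.82 to 2.79), with 3.09 in female and 1.74 in male barcodes. It was detected in 22.8% of Foxp3 2+ barcodes, against 4.59% of Foxp3 0 barcodes and 1.11% of those with no Cd3 UMI.

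Nt5e and Nrp1 were not called in this comparison. Nt5e encodes CD73, the surface enzyme that forms adenosine from AMP. It stood at 66.0 CPM (46.4 to 90.9) in female and 69.8 CPM (53.0 to 90.2) in male Foxp3 2+ barcodes, against 63.2 CPM (49.4 to 79.5) in female and 65.2 CPM (51.6 to 81.2) in male Foxp3 0 barcodes. The libraries of both classes overlapped, and the log2 ratio of 0.09 (-0.30 to 0.47) had an interval within 2-fold in both directions. Nrp1 encodes neuropilin-1, a co-receptor for semaphorins and vascular growth factors that is used in mice as a marker of thymus-derived Tregs. It stood at 23.2 CPM (13 UMIs) in female and 24.1 CPM (20 UMIs) in male Foxp3 2+ barcodes, against 36.8 CPM (42 UMIs) in female and 41.3 CPM (50 UMIs) in male Foxp3 0 barcodes. Its log2 ratio of -0.72 (-1.34 to -0.13) had an interval below 0 and did not reach 2-fold. Over the alternatives tried it ran between -1.49 and -0.20, and it passed 2-fold with thinning to 5000 UMIs (-1.12, -1.69 to -0.57) and with a Cd4 UMI required in both classes (-1.49, -2.35 to -0.71). Nrp1 was detected in 6.25% of Foxp3 2+ and 9.18% of Foxp3 0 barcodes, against 5.56% of those with no Cd3 UMI. The last share does not set a background for T cells, because those barcodes include other cell types. Nt5e was detected in 15.9% of Foxp3 2+ and 14.0% of Foxp3 0 barcodes, against 3.33% of those with no Cd3 UMI.

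The comparison was repeated against the 432 Foxp3 0 barcodes at depth that hold a Cd4 UMI. The same 6 members were higher (background 8.54% of 8304 measured genes) and Nrp1 was lower (background 4.93%). Nrp1 then had a log2 ratio of -1.17 (-1.81 to -0.55), with -1.04 in female and -1.30 in male barcodes. Its level in those Cd4-holding barcodes was 53.2 CPM. The other ratios were 3.66 for Lrrc32, 3.30 for Il2ra, 2.99 for Ikzf2, 2.68 for Ikzf4, 2.17 for Izumo1r, 2.03 for Ebi3 and 0.20 for Nt5e. Of these, Lrrc32 was at 5.51 in female and 2.71 in male barcodes, Ikzf2 at 3.72 in female and 2.47 in male, and Ebi3 at 3.33 in female and 1.23 in male.

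**Figure D2:**
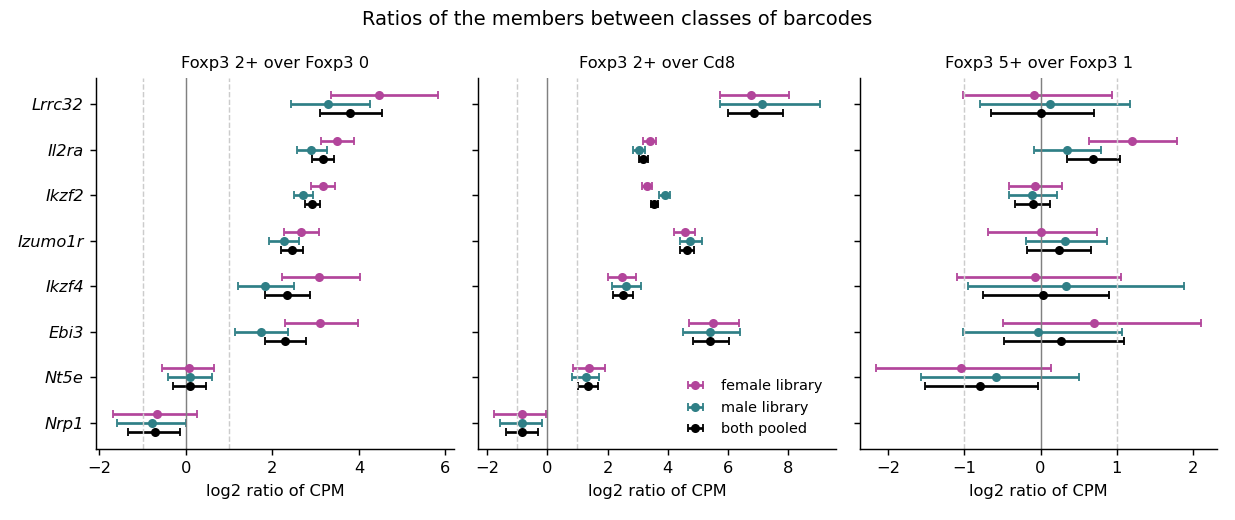
Log2 ratios of CPM for the 8 measured members in Foxp3 2+ over Foxp3 0 (left), Foxp3 2+ over Cd8 (middle) and Foxp3 5+ over Foxp3 1 barcodes (right), with exact 95% intervals for the female library, the male library and both pooled. Dashed lines mark 2-fold. The 6 members above Nt5e lie beyond 2-fold on the left, Nt5e joins them in the middle, and the pooled values on the right, where Nrp1 had too few UMIs, lie within 2-fold.

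The 6 members were already higher at a single Foxp3 UMI. In Foxp3 1 against Foxp3 0 barcodes the same 6 members were called higher and 0 lower (background 7.45% higher and 2.35% lower of 8287 measured genes). In the female library alone 7 were called, with Nt5e added at 1.23 (background 6.17%), and in the male library 5, without Ikzf4 at 1.17 (background 7.88%). In this comparison the log2 ratios were 3.96 for Lrrc32 (3.05 to 4.88), 2.97 for Ikzf2 (2.71 to 3.22), 2.72 for Il2ra (2.32 to 3.11), 2.27 for Ikzf4 (1.36 to 3.10), 2.16 for Ebi3 (1.30 to 2.97) and 2.16 for Izumo1r (1.71 to 2.59). Of these, Lrrc32 was at 4.71 in female and 3.37 in male barcodes, and Ikzf4 at 3.47 in female barcodes. Ikzf2 stood at 139 CPM in the Foxp3 0 class, 1085 in Foxp3 1, 1085 in Foxp3 2 to 4 and 1009.9 in Foxp3 5+. Of the 63 Foxp3 1 barcodes at depth, 1 had 12.2% of the class's Ikzf2 UMIs.

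In Foxp3 5+ against Foxp3 1 barcodes, 0 of 7 measured members were called higher and 0 lower (background 1.46% higher and 2.66% lower of 5629 genes). The classes were set by Foxp3 UMIs before thinning. These barcodes then had medians of 7764.5 UMIs in Foxp3 5+ and 5191 in Foxp3 1, so the classes also differ in depth. Lrrc32 had a log2 ratio of 0.01 (-0.64 to 0.70), Ikzf4 0.03 (-0.76 to 0.89), Ikzf2 -0.10 (-0.33 to 0.13), Izumo1r 0.24 (-0.17 to 0.67) and Ebi3 0.26 (-0.49 to 1.09). Il2ra was the member whose interval lay above 0, at 0.69 (0.35 to 1.04), below the 2-fold rule. Its level was 66.8, 439, 485 and 708 CPM over the Foxp3 0, 1, 2 to 4 and 5+ classes. Between Foxp3 5+ and Foxp3 2 to 4 barcodes its ratio was 0.54 (0.34 to 0.75), with 0.63 in female and 0.51 in male barcodes. In Foxp3 5+ over Foxp3 1, Il2ra was at 1.20 in the female library, which passes the 2-fold rule (background 1.86%), and at 0.35 in the male library. Averaged over all possible thinning draws, these were 0.86 and 0.39.

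Nt5e stood highest in the Foxp3 1 class, at 127 CPM, against 64.2, 62.9 and 73.4 CPM in the Foxp3 0, 2 to 4 and 5+ classes. It was called lower in Foxp3 2 to 4 than in Foxp3 1 barcodes, at -1.01 (-1.77 to -0.23), where 2.32% of 5509 genes were. The Foxp3 1 level rested on 24 UMIs, of which 29.2% came from 1 barcode. With thinning to 5000 UMIs the Foxp3 5+ over Foxp3 1 ratio of Nt5e was 0.37, against -0.79 at 3000 UMIs.

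The members differed in how far Cd8 barcodes share them. In Foxp3 2+ over Cd8 barcodes, 7 of 8 measured members were higher and 0 lower (background 9.85% higher and 5.73% lower of 11034 genes), and the same 7 were called in each library (background 8.47% higher in female and 9.89% in male barcodes). The log2 ratio was 6.86 for Lrrc32 (6.01 to 7.84), 5.42 for Ebi3 (4.83 to 6.04), 4.64 for Izumo1r (4.40 to 4.89), 3.56 for Ikzf2 (3.45 to 3.68), 3.19 for Il2ra (3.05 to 3.34), 2.51 for Ikzf4 (2.18 to 2.83) and 1.36 for Nt5e (1.01 to 1.69). Nrp1 was at -0.83 (-1.38 to -0.32), with 23.2 and 24.1 CPM in female and male Foxp3 2+ barcodes against 41.4 and 43.0 CPM in female and male Cd8 barcodes.

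Lrrc32 was near its floor in Cd8 barcodes, with 8 UMIs in 2158 female and 4 UMIs in 1805 male barcodes. For Ebi3, female Cd8 barcodes held 17 UMIs and male ones 12. Ikzf2 stood at 104 CPM (96.2 to 112) in female and 70.4 CPM (63.5 to 77.8) in male Cd8 barcodes, and 17.7% of pooled Cd8 barcodes held a UMI of it. Il2ra stood at 65.5 and 65.2 CPM in female and male Cd8 barcodes and was detected in 14.7% of them.

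Foxp3 0 barcodes were also set against Cd8 barcodes. The Foxp3 0 class is set by captured UMIs and may hold Tregs whose Foxp3 was missed. In it, 78 of 784 barcodes held at least 2 of the 6 members called higher above. So did 258 of 3963 Cd8 barcodes, so this count does not give the number of missed Tregs. How far such Foxp3 0 barcodes carry the differences below was not tested. Of 8 measured members 4 were higher in Foxp3 0 barcodes (background 7.75% of 11297 genes): Ebi3 at 3.12 (2.44 to 3.84), Lrrc32 at 3.07 (1.97 to 4.24), Izumo1r at 2.20 (1.89 to 2.51) and Nt5e at 1.27 (0.98 to 1.55). Il2ra at 0.03 (-0.23 to 0.28), Nrp1 at -0.11 (-0.44 to 0.22), Ikzf4 at 0.18 (-0.33 to 0.65) and Ikzf2 at 0.64 (0.46 to 0.83) were not called. In the male library alone Ikzf2 was called higher at 1.19 (background 5.8%), and in the female library it was at 0.16. Lrrc32 rested on 20 UMIs in Foxp3 0 and 12 in Cd8 barcodes and had too few to be measured in either library alone, and Ebi3 was at 2.42 in female and 3.66 in male barcodes.

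Of all 4623 Nrp1 UMIs in kept barcodes before thinning, 59.3% were in the Cd8 class, which held 59.9% of the barcodes. The Cd8 class held 46.2% of the 2744 Nt5e UMIs, 29.2% of the 15573 Il2ra UMIs, 26.7% of the 23282 Ikzf2 UMIs and 5.05% of the 1425 Lrrc32 UMIs. A large part of the members' UMIs lay outside all 5 classes, in 887 barcodes with both Foxp3 and Cd8 UMIs. They held 62.4% of the 7176 Foxp3 UMIs, 57.1% of those of Lrrc32, 56.6% of those of Ebi3 and 31.4% of those of Nrp1. Such shares grow with the depth of the barcodes, so they do not show that a gene is concentrated there. Before thinning, Lrrc32 stood at 23.5, Ebi3 at 29.9 and Nrp1 at 42.0 CPM in these 887 barcodes. The Foxp3 5+ class had 105, 99.1 and 19.6 CPM of the same genes, and the Cd8 class had Nrp1 at 46.6 CPM. Barcodes with at least 2 Foxp3 UMIs and at least 2 Cd8 UMIs had a median of 36390 UMIs, and no doublet caller was run. In Foxp3 2+ barcodes without Cd8 UMIs, the same 6 members were higher than in these barcodes (background 6.21% of 8910 genes), with log2 ratios between 1.05 for Il2ra and 1.94 for Lrrc32. Nrp1 was at -0.98 (-1.59 to -0.39). In the male library alone Il2ra was at 0.99, just under 2-fold, and Nrp1 was called lower.

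Gpr83, a G protein-coupled receptor known from mouse Tregs, was nearly undetected. It had 26 UMIs in all kept barcodes before thinning, 12 of them female and 14 male. Of these, 5 were in the Foxp3-positive Cd8-free classes, 3 in Foxp3 0 barcodes, 6 in Cd8 barcodes and 11 in barcodes with both Foxp3 and Cd8 UMIs. At 3000 UMIs a barcode it had 0 UMIs in 464 Foxp3 2+ barcodes, which allows up to 0.792% of them to hold one at that depth, 1 in the Foxp3 0 class and 1 in the Cd8 class. No ratio is given for it. Its neighbour Izumo1r had 5453 UMIs in kept barcodes.

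Members were also found together in single barcodes. The mean number of the 9 other members detected per thinned barcode was 0.742 in Foxp3 0, 2.84 in Foxp3 1, 2.77 in Foxp3 2 to 4, 3.01 in Foxp3 5+ and 0.593 in Cd8 barcodes. None was detected in 52.8% of Foxp3 0 barcodes, 1.59%, 3.07% and 2.12% of the Foxp3 1, 2 to 4 and 5+ barcodes and 55.3% of Cd8 barcodes.

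Read the other way, the number of detected core genes separated Cd8-free barcodes by Foxp3. The core here is Ikzf2, Il2ra, Izumo1r, Lrrc32, Ebi3 and Ikzf4, chosen after their levels were seen, so the shares are a description. A Foxp3 UMI was held by 3.03% of the 528 barcodes with 0 core genes (1.74% to 4.87%), 26.8% of 265 with 1 (21.6% to 32.6%), 77.9% of 195 with 2 (71.5% to 83.6%), 87.9% of 182 with 3 (82.3% to 92.3%) and 90.8% of 141 with 4 or more (84.7% to 95%). Median UMI totals of these barcodes ran between 5418 and 6409. Conversely, 78 of the 784 Foxp3 0 barcodes (9.95%) held at least 2 core genes, 7.89% in female and 11.9% in male barcodes. In the Cd8 class 6.51% of barcodes did. At least 3 core genes were held by 4.46% of Foxp3 0 and 0.58% of Cd8 barcodes.

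**Figure D3:**
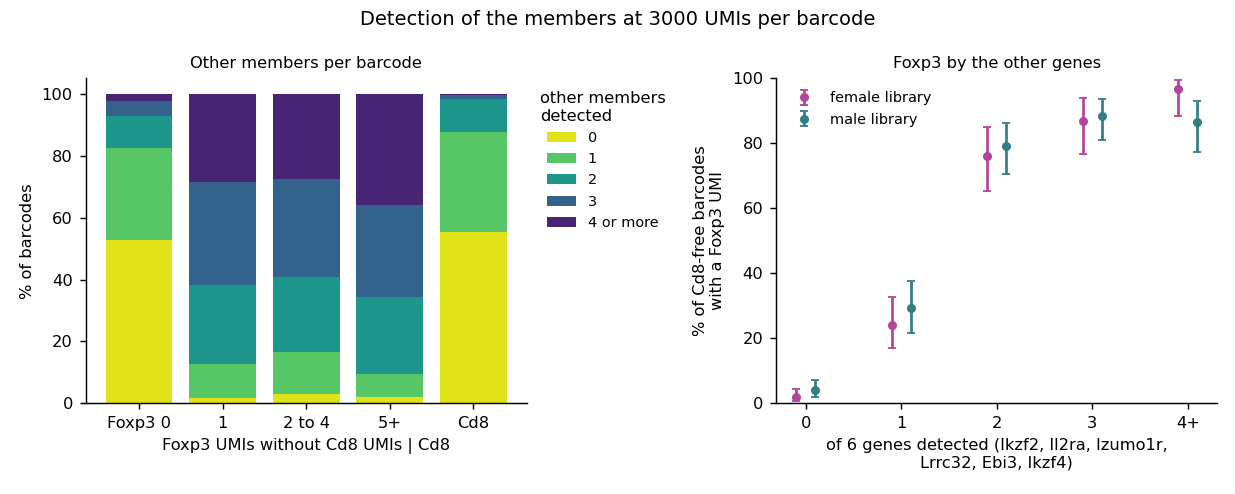
Left, share of barcodes (vertical axis, %) with 0, 1, 2, 3 or at least 4 of the 9 other members detected after thinning to 3000 UMIs, for the Foxp3 0, 1, 2 to 4 and 5+ classes and the Cd8 class, both libraries pooled. Right, share of Cd8-free barcodes with a Foxp3 UMI (vertical axis, %, exact 95% binomial intervals) by the number of 6 core genes detected, for the female and male library. The share stands at 3.03% with 0 core genes and 90.8% with 4 or more, both libraries pooled.

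Within the 527 Foxp3-positive Cd8-free barcodes at depth, some members were detected together or apart, and the pairs named here were picked after their values were seen. Nrp1 was detected in 11 of 327 barcodes with Il2ra (3.36%, 1.69% to 5.94%) and in 24 of 200 without it (12.0%, 7.84% to 17.3%). The female shares were 4.35% and 13.2% and the male shares 2.65% and 11.3%. Ikzf4 was found in 23.6% of 454 barcodes with Ikzf2 (19.7% to 27.7%) and 9.59% of 73 without it (3.94% to 18.8%). Ebi3 was found in 26.9% of barcodes with Il2ra (22.2% to 32.1%) and 16.5% of those without it (11.6% to 22.4%).

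Members were also found in Cd8 barcodes, beside genes of Cd8 T cell states. The 11 Cd8 genes compared were chosen after the data were seen, ratios are of barcodes with over barcodes without the member's UMI, and neither calls nor tests between members were made. Ratios are pooled over both libraries unless a library is named, and values for Gzmb, Mki67 and Ly6c2 are not given here. The 584 Cd8 barcodes with Il2ra had Xcl1, a chemokine for dendritic cells, at 207 CPM against 82.5 CPM in the 3379 without (log2 ratio 1.33, 1.15 to 1.51), and Tcf7, a factor of memory-like cells, at 38.2 against 126 CPM (-1.73, -2.10 to -1.37). Xcl1 was at 1.80 (1.55 to 2.05) in female and 0.82 (0.55 to 1.09) in male barcodes. The inhibitory receptor Lag3 was at 0.70 (0.56 to 0.85) with Izumo1r, 0.60 (0.51 to 0.68) with Ikzf2, 0.56 (0.46 to 0.66) with Nrp1 and 0.24 (0.15 to 0.33) with Il2ra. Havcr2, another inhibitory receptor, was at 0.69 (0.50 to 0.87) with Nrp1, 0.66 (0.37 to 0.94) with Izumo1r, 0.62 (0.45 to 0.79) with Il2ra and 0.26 (0.09 to 0.43) with Ikzf2. With Ikzf2 it was at 0.07 (-0.17 to 0.29) in female and 0.55 (0.29 to 0.79) in male barcodes. The inhibitory receptor Pdcd1 was at 0.41 with Nrp1, 0.37 with Ikzf2, 0.32 with Izumo1r and -0.02 (-0.12 to 0.08) with Il2ra. With Izumo1r it was at 0.40 (0.20 to 0.60) in female and 0.11 (-0.20 to 0.39) in male barcodes. Tcf7 was at -0.80 (-1.13 to -0.48) in the 420 barcodes with Nrp1. The 703 barcodes with Ikzf2 had the exhaustion factor Tox at 0.62 (0.41 to 0.83) and the interferon-induced gene Ifitm1 at -0.92 (-1.004 to -0.84). There Tox was at 0.31 in female and 1.04 in male barcodes, and Ifitm1 at -0.71 in female and -1.28 in male barcodes. Tox was at 0.52 with Izumo1r, 0.38 with Nrp1, 0.18 (-0.17 to 0.51) with Nt5e and -0.41 (-0.70 to -0.13) with Il2ra. With Il2ra, Tox was at -0.63 (-1.06 to -0.23) in female and -0.19 (-0.59 to 0.19) in male barcodes. Ifitm1 was higher with Il2ra (0.47, 0.41 to 0.53). It was at 0.36 with Nt5e (-0.02 in female and 0.66 in male) and 0.29 with Nrp1 (0.06 in female and 0.52 in male). In the 156 barcodes with Izumo1r, Ifitm1 was at 169 CPM against 1191 CPM in those without (-2.82, -3.16 to -2.50), with -2.33 in female and -3.84 in male barcodes. In the 267 barcodes with Nt5e, Tcf7 was at 0.70 (0.44 to 0.96), Pdcd1 at -0.44 (-0.60 to -0.28), Lag3 at -0.41 (-0.58 to -0.26) and Havcr2 at -0.51 (-0.84 to -0.19). There Lag3 was at -0.12 (-0.32 to 0.07) in female and -0.85 (-1.13 to -0.58) in male barcodes. Havcr2 was at -0.36 (-0.82 to 0.06) in female and -0.67 (-1.17 to -0.21) in male barcodes. Cd3e, a control for T cell content, lay between -0.18 and 0.20 in these comparisons with both libraries pooled. With Nt5e it was at -0.03 (-0.17 to 0.10) in female and -0.37 (-0.53 to -0.20) in male barcodes. With Izumo1r it was at 0.16 (0.01 to 0.31) in female and 0.24 (0.05 to 0.43) in male barcodes.

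The members' levels in Foxp3 2+ barcodes were also compared between the sexes. At 1.5-fold, 0 of 8 measured members were called in the female over the male library, where 5.7% of 6784 genes were called in either direction. The log2 ratio was -0.01 for Ikzf2 (-0.17 to 0.14), 0.05 for Izumo1r (-0.20 to 0.30), -0.05 for Nrp1 (-1.18 to 1.02), -0.08 for Nt5e (-0.72 to 0.54), 0.24 for Ikzf4 (-0.29 to 0.75), 0.35 for Ebi3 (-0.15 to 0.84), 0.37 for Lrrc32 (-0.09 to 0.83) and 0.36 for Il2ra (0.16 to 0.56). The interval of Il2ra lay above 0, and over the alternatives tried its ratio ran between 0.09 and 0.62. Foxp3 was at 720.1 CPM in female and 769 CPM in male Foxp3 2+ barcodes, at -0.09 (-0.28 to 0.09). For Nrp1, Nt5e, Lrrc32, Ebi3 and Ikzf4 a 1.5-fold difference lies inside the interval, so a difference of that size is not excluded.

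In Foxp3 0 barcodes Ikzf4 (-1.01, -2.04 to -0.05) and Ebi3 (-0.999, -1.96 to -0.10) were called lower in the female library, where 3.02% of 8072 genes were. They rested on 14 and 16 female against 30 and 34 male UMIs. In Cd8 barcodes 0 of 7 measured members were called (background 4.51% of 10750 genes in either direction), and Ikzf2 was at 0.56 (0.38 to 0.75). The share of Cd8-free barcodes with a Foxp3 UMI was 29.0% of 594 female (25.3% to 32.8%) and 37.5% of 717 male barcodes (34.0% to 41.2%) after thinning, and 32.1% of female and 36.9% of male barcodes before it, at medians of 5204 (female) and 4740 (male) UMIs. Sorting and digestion can set such shares. For comparison, 0 of 91 thinned barcodes with no Cd3 UMI held Foxp3, which allows up to 3.97%. Before thinning 16 of 281 such barcodes held it (5.69%, 3.29% to 9.08%), 12 of them with exactly 1 UMI, at a median of 1797 UMIs.

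Partners of the members were read from 10 lists chosen with earlier results of these data known, in Foxp3 2+ over Foxp3 0 barcodes. The calls stand beside the same background of 7.91% higher and 6.89% lower. Among 11 measured genes of the interleukin 2 receptor and its signalling, 2 were higher, 2 lower, and the median log2 ratio was -0.07. Socs2, an inhibitor of cytokine signalling, was higher at 2.003 (1.55 to 2.47) and the receptor kinase Jak3 at 1.12 (0.81 to 1.44). Socs2 was at 2.82 in female and 1.36 in male barcodes, and Jak3 was not called in the female library (0.96). The survival gene Bcl2 was lower at -4.13 (-5.59 to -2.98), with -2.84 in female and -6.16 in male barcodes on 5 and 1 UMIs in female and male Foxp3 2+ barcodes. The cytokine gene Il2 had 0 UMIs in Foxp3 2+ and 39 UMIs in Foxp3 0 barcodes. It was present in the 63 Foxp3 1 barcodes, at 68.8 CPM against 16.6 CPM in the Foxp3 0 class. Cish, an inhibitor of cytokine signalling like Socs2, was at 0.83 (0.62 to 1.04). The receptor chains Il2rb (0.81, 0.69 to 0.94) and Il2rg (0.75, 0.64 to 0.86) lay below 2-fold, unlike Il2ra.

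Of 5 Ikaros family genes 3 were higher, Ikzf2, Ikzf4 and Ikzf3, which encodes Aiolos (1.12, 0.88 to 1.37, not called in the female library at 0.87). Ikzf1 (-0.16, -0.40 to 0.07) and Ikzf5 (-0.15, -1.12 to 0.77) were not called. Of 10 measured partners of Lrrc32 in TGF-beta handling, 2 were higher and 2 lower, with a median of -0.13. The higher ones were Itgb8 at 3.07 (2.45 to 3.74) and Itgav at 2.09 (1.88 to 2.30), which together form the integrin that frees TGF-beta from GARP. The lower ones were the receptor Tgfbr2 at -1.38 (-1.71 to -1.06) and the signal carrier Smad3 at -1.02 (-1.76 to -0.34). Itgb8 was at 4.32 in female barcodes, on 5 UMIs in Foxp3 0, and at 2.47 in male barcodes, and Smad3 was not called in either library alone. Tgfb1 itself was at 0.14 (-0.04 to 0.33).

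Of 7 measured genes of the adenosine pathway of Nt5e, 1 was higher and 0 lower, with a median of 0.09. It was Entpd1, which encodes CD39, the enzyme upstream of CD73, at 1.96 (1.51 to 2.41). The adenosine receptor Adora2a was at 0.73 (0.35 to 1.11). Of 3 measured partners of Ebi3, Il12rb2, a receptor chain of interleukins 12 and 35, was lower at -1.05 (-1.47 to -0.65, not called in the male library at -0.59), and 0 were higher. Il27ra was at 0.77 (0.43 to 1.10) and Il6st at 0.91 (0.50 to 1.33), which was called higher in the female library at 1.37. Of 5 measured partners of Nrp1, its ligand Sema4a was lower at -1.75 (-2.64 to -0.94), 0 were higher, and Sema4d was at 0.99 (0.75 to 1.23), which was called higher in the male library at 1.06. Of 20 measured factors and cofactors of Foxp3, 0 were higher and 3 lower, with a median of -0.23: Tcf7 (-3.79), Bach2 (-2.64) and Lef1 (-1.37), the T cell factors of naive and memory states. Tcf7 was at -3.17 in female and -4.33 in male barcodes, Bach2 at -1.69 in female and -3.76 in male, and Lef1 at -0.86 in female, where it was not called, and -1.76 in male. The factor Nfatc1 was at -0.96 (-1.28 to -0.64) and was called lower in the female library at -1.48.

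Other Treg genes moved with the core. Of 20 measured effector Treg genes 17 were higher and 0 lower, with a median of 1.93. They included the integrin chain Itgae at 3.87 (3.41 to 4.38), the costimulatory receptor Tnfrsf9 at 2.78 (2.66 to 2.89), the tissue repair factor Areg at 2.76 (2.55 to 2.97) and the receptor Klrg1 at 2.62 (2.37 to 2.87), with 2.20 in female and 3.25 in male barcodes. Of 19 measured genes known to be low in Tregs, 13 were lower and 1 higher, with a median of -2.05. Igfbp4, a binding protein of insulin-like growth factors, was lower at -5.67 (-7.30 to -4.44), with -4.61 in female and -6.60 in male barcodes on 3 and 2 UMIs in female and male Foxp3 2+ barcodes, and the TNF family ligand Tnfsf8 at -5.14 (-6.36 to -4.15). Dapl1 had 0 UMIs in Foxp3 2+ and 57 in Foxp3 0 barcodes. Of 12 T cell genes 1 was higher, Cd2 at 1.48 (1.38 to 1.58), and 0 were lower, with a median of 0.37.

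**Figure D4:**
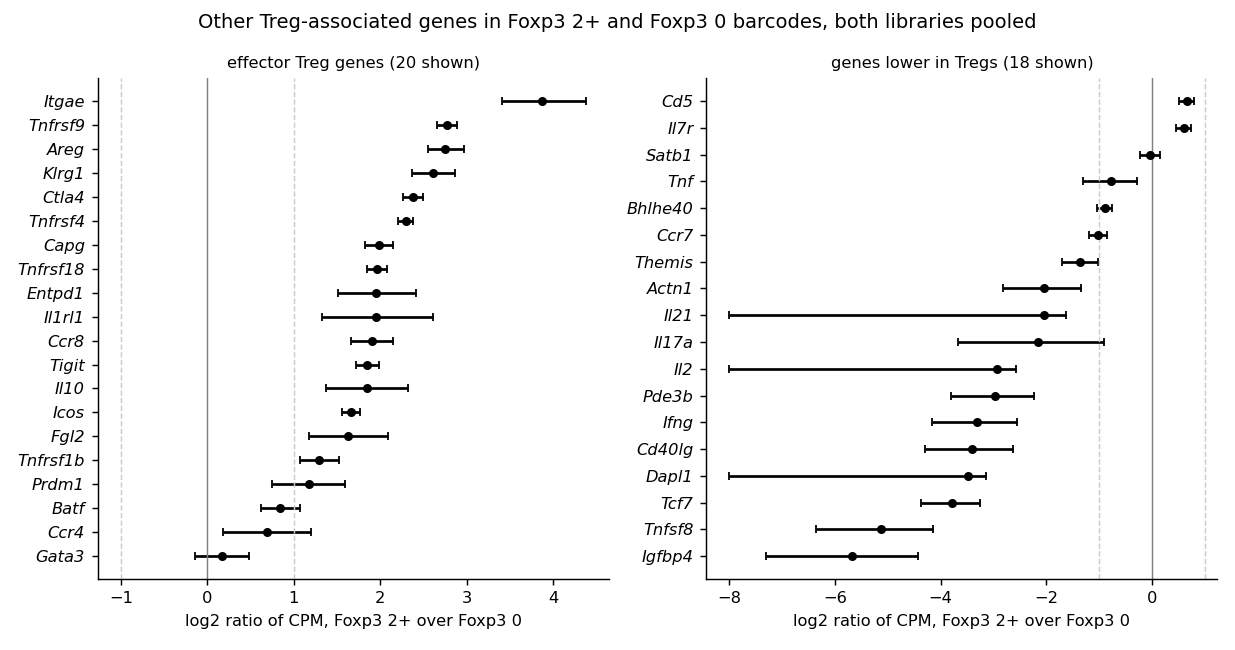
Log2 ratio of CPM in Foxp3 2+ over Foxp3 0 barcodes (horizontal axis, both libraries pooled, exact 95% intervals) for 20 measured effector Treg genes (left) and 18 of the 19 measured genes known to be low in Tregs (right). Dashed lines mark 2-fold. Effector genes lie between 0.17 (Gata3) and 3.87 (Itgae), and Il2, Il21 and Dapl1, with 0 UMIs in Foxp3 2+ barcodes, are drawn at 3 counts with their open lower bounds cut at the edge of the axis.

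The genes whose level was most like that of Foxp3 were named by Pearson's r of log2(CPM + 10) over 10 points, the 5 classes in each of the 2 libraries, among 4109 genes with at least 50 thinned UMIs in Foxp3 2+ barcodes. The points share libraries, and the classes were set by Foxp3, so r describes the step between classes. Il2ra ranked second with r = 0.988. The others of the first 10 were M6pr, a receptor that carries enzymes to lysosomes (0.989), the surface protein gene Ly6a (0.987), Flicr, which overlaps Foxp3 and cannot be told apart from it with certainty (0.982), the costimulatory receptor Tnfrsf18 (0.982), the interferon-induced GTPase Gbp7 (0.981), Gimap7, a GTPase of lymphocytes (0.981), the leukotriene receptor Ltb4r1 (0.981), Arl5c (0.980) and Mea1 (0.979). Among the members Ikzf2 ranked 45 (0.952), Lrrc32 62 (0.947), Ebi3 124 (0.924), Izumo1r 157 (0.912), Ikzf4 163 (0.911) and Nt5e 1268 (0.552). Nrp1 and Gpr83 had too few UMIs to be ranked. Ly6a stood at 599, 1603, 1770.5 and 2059 CPM over the Foxp3 0, 1, 2 to 4 and 5+ classes and at 556 CPM in Cd8 barcodes.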

How the data were processed

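Single-cell transcripts were counted in 1 female and 1 male library. The authors made the deposited UMI counts using Cell Ranger (version 7.0.1, per the file headers), with 1 matrix of genes by barcodes for each library. The submitters' processing notes name GRCm38 and Seurat 5. Counting settings, annotation release and doublet treatment are not given in the sources used here. Sorting, digestion and free RNA can shift which barcodes hold a transcript.

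From these counts, a barcode was kept with 500 genes or more and no more than 10% of its UMIs from mitochondrial genes (female 3468 of 3658, 55880364 UMIs in the file, and male 3519 of 3708, 50946624 UMIs). Classes were read from the counts as deposited. Each barcode was thinned to 3000 UMIs (1 draw, seed 1) and UMIs were summed per class. Ratios have exact 95% intervals for 2 Poisson counts, a count of 0 being set to 3, and shares the Clopper-Pearson interval. Cells are not replicates, so no p-value was made. Members, classes and lists were chosen with earlier results of these data known. Genes were named by rule: all 10 members, the 10 most like Foxp3, and up to 4 per list by size of ratio with at least 50 UMIs. Further list genes named beside a member (Il2, Il2rb, Il2rg, Ikzf5, Tgfb1 and Gata3) were chosen after their values were seen. The values of 1 list gene are not reported here. The steps were tested on simulated counts. Python 3.11.15, numpy 2.4.6, scipy 1.17.1, pandas 2.3.3, matplotlib 3.10.9 and edgeR 4.0.16 (TMM factors as an alternative scaling) were used.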

Additional observations from a re-analysis of the deposited data

Results flagged for a closer look

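Izumo1r moved in opposite directions in the libraries between barcodes with 5 or more and with 2 to 4 Foxp3 UMIs. In the female library it was at 284 CPM (75 UMIs, 88 barcodes) in Foxp3 5+ and 492 CPM (146 UMIs, 99 barcodes) in Foxp3 2 to 4 barcodes, a log2 ratio of -0.79 (-1.21 to -0.38). In the male library it was at 428 CPM (190 UMIs, 148 barcodes) in Foxp3 5+ and 326 CPM (126 UMIs, 129 barcodes) in Foxp3 2 to 4 barcodes, a log2 ratio of 0.39 (0.06 to 0.73). The difference between the libraries was not tested. Averaged over all thinning draws the female ratio was -0.52 (-0.94 to -0.11) and the male ratio 0.25 (-0.08 to 0.58), and without thinning -0.59 in female and 0.03 in male barcodes. The female interval included 0 with another thinning seed (-0.36, -0.78 to 0.06), with thinning to 5000 UMIs (-0.32, -0.69 to 0.04) or 1500 UMIs (-0.25, -0.87 to 0.36) and with classes read after thinning (-0.41, -1.26 to 0.34), and so did the male interval under each of these (0.13, 0.19, 0.40 and 0.47).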

How the results depend on the processing

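The 6 members called higher in Foxp3 2+ over Foxp3 0 barcodes, and the 7 over Cd8 barcodes, were called under every alternative run, except that 6 were called over Cd8 barcodes at 3-fold. The alternatives were other thinning depths and seeds, no thinning, other filters and class rules, TMM and median of ratios scaling, each library alone and, added after seeing the data, the mean over all thinning draws. TMM scaling changes all log2 ratios by -0.13 in Foxp3 2+ over Foxp3 0, by -0.22 over Cd8 barcodes and by 0.10 in Foxp3 5+ over Foxp3 1. The 0 calls in Foxp3 5+ over Foxp3 1 became 1 with thinning to 5000 UMIs (Izumo1r), classes read after thinning (Lrrc32), 1.5-fold or the female library alone (both Il2ra). The 0 calls between the sexes became 1 with thinning to 5000 UMIs (Nrp1), another seed (Lrrc32) or classes read after thinning (Ikzf4). They also became 1 (Il2ra) with the filter on tumour, myeloid, B cell, fibroblast and endothelial markers. The cause was not tested. Nt5e in Foxp3 5+ over Foxp3 1 was -0.79 and turned to 0.37 (5000 UMIs) and 0.27 (classes read after thinning). No paired test was made: comparisons between classes are given pooled or, where named, within a library, and the sexes have 1 library each. Depth limits Nrp1, Nt5e, Ikzf4, Ebi3 and Lrrc32, which rest on 33 to 163 thinned UMIs in Foxp3 2+ barcodes.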
